A study of Mus musculus with 6 samples.

Results

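The melanocyte and eye pigment genes are 10 genes of the pigment cell program, taken from the deposited table by their symbols: Mitf, Kit, Ednrb, Pmel, Mlana, Tyr, Tyrp1, Dct, Slc45a2 and Oca2. All 10 were found among its 56359 rows. RNA sequencing had been done on C57BL/6 embryos of embryonic day 12, with 3 samples of wild type and 3 of Tmem216-/-, and no further allele or agent is named for either group. The values are TPM, transcript abundances scaled for gene length and library, so levels can be set side by side between genes. Read depth is unknown. The labels give the source as embryo only, with no word on which tissue was dissected, on pooling or on how the Tmem216-/- allele was made, and they do not tie a replicate to an individual animal. The p-values therefore measure only how far these samples spread, and that spread may be technical.

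Pigment cells of the mouse have 2 origins. Melanoblasts leave the neural crest, migrate under the skin and depend on the receptors KIT and EDNRB, while the retinal pigment epithelium forms from the outer layer of the optic cup. Both are directed by the transcription factor MITF, which binds promoters of the genes for melanosome proteins, and in both the pigment is made inside melanosomes by the tyrosinase family of enzymes on a fibrous matrix built from PMEL. KIT and EDNRB are not restricted to pigment cells: KIT is also found on blood progenitors, mast cells and germ cells, and EDNRB on enteric neural crest and neural progenitors.

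Tmem216, the gene named in the genotype, was 31.0, 30.7 and 17.4 TPM in wild type, against 2.25, 0.51 and 1.39 TPM in Tmem216-/-, in the order of replicates 1 to 3 that is used throughout, so each library followed its label. Of 16411 genes tested with limma, 17 changed at an adjusted p under 0.05, which is 0.104% of those tested. The groups also differed in heart muscle genes, whose 6 listed members summed to between 33.1 and 48.9 TPM in wild type and to between 715 and 1852 TPM in Tmem216-/-. Of these, Myl7, Myl2 and Myh6, which encode cardiac myosin chains, had differences of 6.13, 6.00 and 3.88 on the log2(TPM + 1) scale (limma adjusted p = 0.0174, 0.0198 and 0.0174). All 3 missed the threshold without wild type replicate 1 or without wild type replicate 3, Myl7 and Myl2 also without Tmem216-/- replicate 3, and Myl2 without wild type replicate 2, with an adjusted p of up to 0.0956. In a fit of all 6 samples without a filter on low values 0 genes passed, so these 3 missed the threshold there as well. Wild type replicate 3 stood apart in lens genes: the 13 listed summed to 82.3 TPM, against 14.1 and 9.45 TPM in the other wild type samples and 7.0 to 8.68 TPM in Tmem216-/-. Other eye lists did not set it apart. Genes of neural retina and eye field summed to 106.5 TPM in wild type replicate 1 and 107.6 TPM in replicate 3. For the retinal pigment epithelium list the sums were 296.4 and 258.9 TPM. The part of these sample differences in the results below was not tested. In whole tissue, fewer cells of a type and less RNA per cell cannot be told apart.

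The 10 genes spanned more than 2 orders of magnitude in level. Averaged over the 6 samples, Ednrb stood at 37.5 TPM and Kit at 13.9 TPM, and their ranges did not meet. Pmel followed at 3.54 TPM, Dct at 2.58 TPM and Mitf at 1.365 TPM, and the sample ranges of neighbours among these overlapped. Tyr (0.258 TPM), Mlana (0.218 TPM), Tyrp1 (0.21 TPM), Oca2 (0.118 TPM) and Slc45a2 (0.11 TPM) were lowest, below 0.7 TPM in every sample, and their ranges overlapped as well. The genes most specific to pigment cells were thus at the low end, and both receptors, which other cells also carry, were at the high end.

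**Figure D1:**
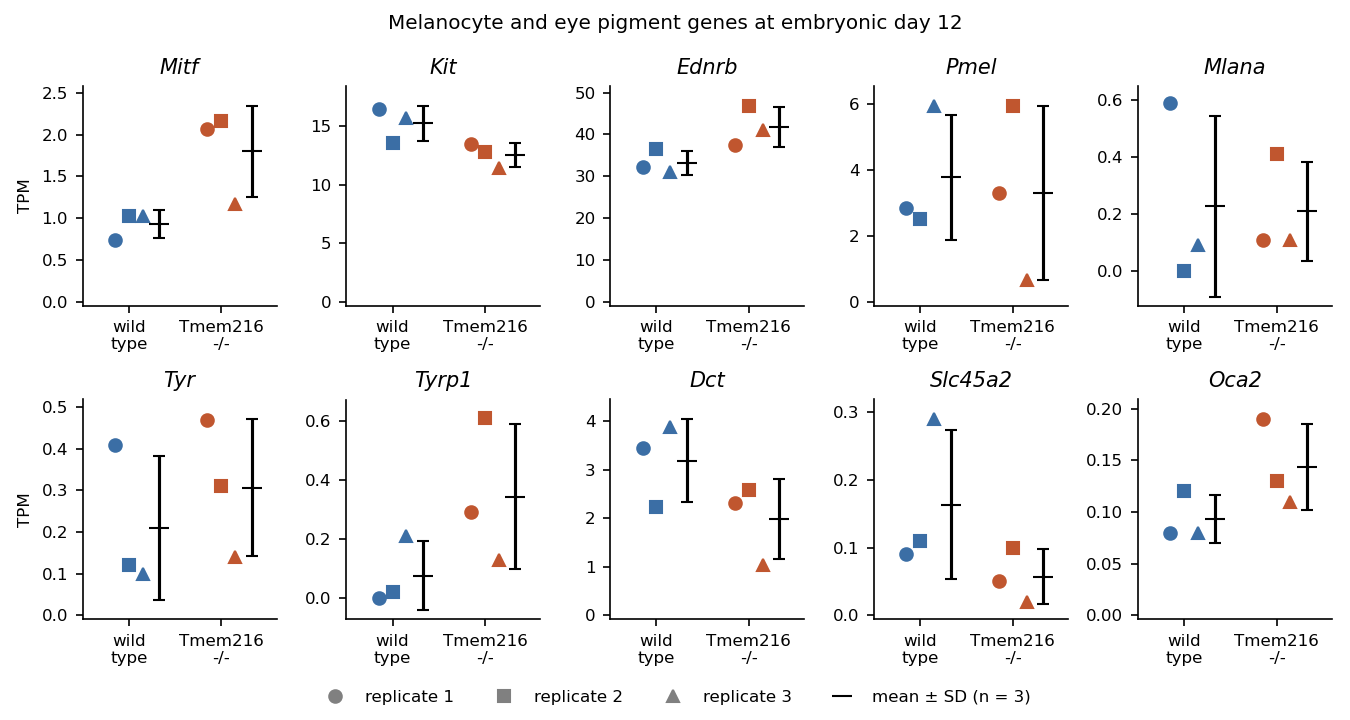
TPM of each of the 10 genes (vertical axis, linear, a separate scale per panel) in wild type (blue) and Tmem216-/- (orange), with a marker per replicate and black bars for mean ± SD (n = 3). Mitf and Ednrb lie higher and Kit lower in all 3 Tmem216-/- samples, while the groups overlap for the other 7 genes.

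No difference between the genotypes passed the test for any of the 10 genes. The test needs 1 TPM or more in at least 3 samples, and 5 genes reached it: Mitf, Kit, Ednrb, Pmel and Dct. Of these, 0 passed limma at an adjusted p under 0.05 (background 0.104% of genes tested), and 2 of 5 had an unadjusted p under 0.05 (background 4.46%). The latter count ran from 0 to 2 over the alternatives given in the section on processing. The groups did not overlap for 3 of 5, with Mitf and Ednrb higher in Tmem216-/- and Kit lower (background 9.57% in either direction, 4.75% higher and 4.83% lower). Over all 10 genes the log2(TPM + 1) difference was positive for 6 and negative for 4, with a median of 0.03, against -0.0077 for all genes tested. In a fit without the filter on low values, which takes in all 10, 0 passed, and the lowest adjusted p was 0.925.

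**Figure D2:**
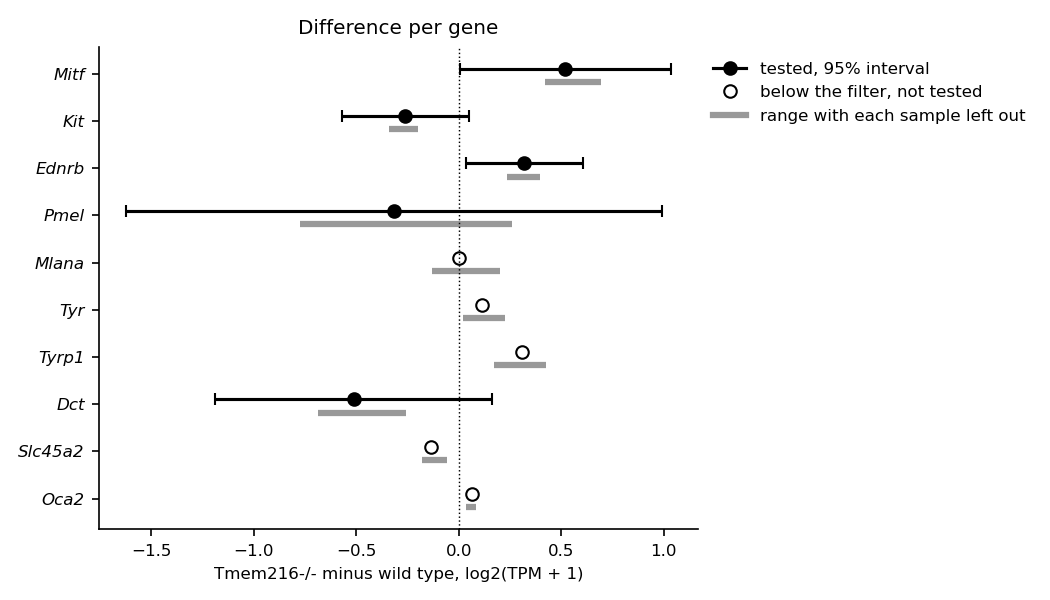
Difference between Tmem216-/- and wild type in mean log2(TPM + 1) for the 10 genes, with 95% intervals from limma for the 5 tested genes (filled), open points for the 5 genes below the filter, and grey bars for the range when each sample is left out in turn. Pmel has the widest interval (-1.62 to 0.99), and its grey bar crosses 0.

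Mitf, the master transcription factor of pigment cells, was 0.74, 1.02 and 1.03 TPM in wild type, against 2.07, 2.16 and 1.17 TPM in Tmem216-/-. Every Tmem216-/- value lay above every wild type value, but replicate 3 only just. The means were 0.93 ± 0.165 and 1.80 ± 0.547 TPM (SD, n = 3 each), a ratio of 1.94. The difference of 0.52 on the log2(TPM + 1) scale (SE 0.22, 95% interval 0.0059 to 1.03) did not pass limma (p = 0.0481, adjusted p = 0.983), and an exact permutation test (two-sided) gave 0.1, the lowest p this design allows. With each sample left out the difference stayed between 0.42 and 0.69. Mitf (ENSMUSG00000035158) lies on the plus strand at chr6:97807052-98021349 in GRCm38, the assembly also called mm10, and RefSeq gives it 3 starts, at 97807058, 97929817 and 97991783. Different starts serve melanocytes and the retinal pigment epithelium, and a value per gene adds them together.

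Among the relatives of Mitf, Tfec showed the largest difference among all genes of the pigment and melanosome lists. Tfec, which encodes a MITF-family factor found in the retinal pigment epithelium and in macrophages, was 7.40, 5.06 and 5.04 TPM in wild type, against 1.20, 1.95 and 0.83 TPM in Tmem216-/-. The groups were far apart, with a difference of -1.56 (SE 0.24), yet it did not pass limma over all genes (adjusted p = 0.149). Tfe3 and Tfeb, the remaining family members, were looked at after the values of Tfec were seen. Their mean levels were 27.2 ± 5.76 and 28.5 ± 4.58 TPM for Tfe3 and 3.63 ± 1.33 and 3.90 ± 0.399 TPM for Tfeb in wild type and Tmem216-/-. The groups overlapped for both genes.

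The transcription factors that act with or above Mitf did not pass either. Of 13 listed factors, 6 were higher and 7 lower in Tmem216-/-, with a median of -0.01, and 0 passed limma. At an unadjusted p under 0.05 there were 3 (background 4.46% of genes tested). Sox10, a crest factor that activates Mitf in melanoblasts, was 12.2, 17.6 and 21.9 TPM and 13.7, 15.9 and 12.2 TPM, and the groups overlapped. The Sox10 difference of -0.25 was -0.07 without wild type replicate 3 and -0.47 without wild type replicate 1. Pax3, another crest activator, had a difference of 0.23. Otx2, which acts with Mitf in the retinal pigment epithelium and is also abundant in fore- and midbrain, was 40.2, 35.0 and 24.4 TPM and 40.8, 50.8 and 53.9 TPM. The Otx2 groups did not overlap, but only by 40.81 against 40.17 TPM (difference 0.55, adjusted p = 0.983). Zeb2, a zinc finger factor of crest and melanocytes, had a difference of 0.31 and groups that did not overlap, the closest by 28.8 against 27.8 TPM. Among all genes tested the groups did not overlap for 9.57%.

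Kit, the receptor tyrosine kinase that melanoblasts need to survive and migrate, was 16.5, 13.5 and 15.7 TPM in wild type, against 13.5, 12.8 and 11.4 TPM in Tmem216-/-. All 3 Tmem216-/- values lay below wild type, the closest by 13.46 against 13.54 TPM. The means were 15.2 ± 1.51 and 12.5 ± 1.05 TPM, a difference of -0.26 (SE 0.13, 95% interval -0.57 to 0.05), which did not pass limma (p = 0.0872, adjusted p = 0.983; exact permutation p = 0.1). Kit (ENSMUSG00000005672) lies on the plus strand at chr5:75574916-75656722.

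Ednrb, the endothelin receptor of melanoblasts and enteric crest, was 32.1, 36.4 and 31.0 TPM in wild type, against 37.4, 46.9 and 41.0 TPM in Tmem216-/-. The groups did not overlap, although Tmem216-/- replicate 1 was only just above wild type replicate 2. The means were 33.2 ± 2.85 and 41.7 ± 4.8 TPM, a ratio of 1.26 and a difference of 0.32 (SE 0.12, 95% interval 0.04 to 0.61), which did not pass limma (p = 0.0327, adjusted p = 0.983; exact permutation p = 0.1). Ednrb (ENSMUSG00000022122) lies on the minus strand at chr14:103814625-103844402. The receptors thus lay in opposite directions, with Tmem216-/- to wild type ratios of 1.26 for Ednrb and 0.823 for Kit, and neither passed.

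Genes of other cell types known to carry KIT or EDNRB were also measured, many of them not restricted to those cells. Of 7 listed genes of mast cells and blood progenitors, 6 were lower in Tmem216-/- and 0 passed limma (0 at an unadjusted p under 0.05). Their sum was 84.7 to 103 TPM in wild type and 84.9 to 86.5 TPM in Tmem216-/-. Cpa3, a mast cell protease, was 1.07, 2.39 and 0.52 TPM and 1.09, 0.05 and 0.58 TPM, so it was near 0 in Tmem216-/- replicate 2. Hdc, which makes histamine in mast cells, had a difference of -0.34, and Myb and Runx1, factors of blood progenitors, of -0.47 and -0.26. Of 5 enteric crest genes 2 were higher and 3 lower with 0 passing (0 at an unadjusted p under 0.05), summing to 95.9 to 125 TPM and 92.9 to 127 TPM (wild type and Tmem216-/-). Ret, a receptor of enteric crest and other neurons, had a difference of -0.22, its co-receptor Gfra1 of 0.20 and Phox2a, a factor of autonomic neurons, of -0.37. The Ret groups did not overlap, at 4.26, 5.01 and 4.81 TPM and 3.66, 3.88 and 4.10 TPM (adjusted p = 0.983 in limma). Of 6 genes of Schwann cell precursors and crest 1 was higher and 5 lower, and 0 of the 5 tested passed (0 at an unadjusted p under 0.05). They summed to 328 to 410.4 TPM and 367 to 472 TPM, mostly from Fabp7, a lipid carrier also abundant in neural progenitors (difference 0.17). Foxd3, a factor of early crest, had a difference of -0.39, and Cdh19, a cadherin of Schwann cell precursors, of -0.06. Gfra3, a co-receptor of crest-derived neurons and glia, was 5.90, 6.17 and 5.60 TPM and 4.61, 3.34 and 5.18 TPM, the only gene of this list whose groups did not overlap (difference -0.37, adjusted p = 0.983). The part of these cells in the values of Kit and Ednrb was not tested.

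No difference in the ligands passed the test. Of 12 listed ligands and receptors 11 were found, and 0 of the 10 tested passed limma, with 0 at an unadjusted p under 0.05. Kitl, the ligand of KIT, was 4.82, 8.81 and 1.65 TPM and 4.39, 5.06 and 4.17 TPM, so the wild type spread covered all Tmem216-/- samples. Edn3, the ligand of EDNRB, was 9.30, 7.97 and 8.79 TPM and 8.77, 8.47 and 8.21 TPM (difference -0.03). Edn1, a vascular endothelin peptide, was 1.02, 1.42 and 1.08 TPM and 1.46, 2.26 and 2.09 TPM, without overlap but also without passing (difference 0.43, adjusted p = 0.983). Adamts20, a matrix protease needed for melanoblast survival, had a difference of -0.28 that ran from -0.49 to -0.058 with each sample left out, and lay nearest 0 without Tmem216-/- replicate 2. Nrg1, a growth factor for crest-derived glia, had a difference of -0.26 that ran from -0.51 to -0.064, nearest 0 without Tmem216-/- replicate 3.

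Pmel, which encodes the amyloid matrix protein of the melanosome, was 2.86, 2.52 and 5.96 TPM in wild type, against 3.29, 5.96 and 0.65 TPM in Tmem216-/-. The highest value occurred in both groups, and Tmem216-/- replicate 3 was the lowest of all. The difference was -0.31 (SE 0.55, 95% interval -1.62 to 0.99; p = 0.586, adjusted p = 0.983; exact permutation p = 0.9), and it turned to 0.26 without Tmem216-/- replicate 3. The interval leaves room for a change of either sign. Pmel (ENSMUSG00000025359) lies on the plus strand at chr10:128704195-128720238, where it overlaps the cell cycle kinase gene Cdk2 by 837 bases and Dgka by 105 bases, both on the opposite strand. Whether counting used the strand is not given in the sources used here, and without it reads in the overlap cannot be assigned to either gene. Cdk2, picked for this overlap with its values already seen, averaged 68.1 ± 3.85 and 64.8 ± 5.74 TPM and ran from 60.8 to 72.3 TPM over the 6 samples.

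Mlana, which encodes a melanosome membrane protein that partners PMEL, was 0.59, 0 and 0.09 TPM in wild type, against 0.11, 0.41 and 0.11 TPM in Tmem216-/-. It was listed at 0 in wild type replicate 2, its values were too low for the test, and the mean difference was 0.0012. Gpnmb, a relative of Pmel chosen after its values were seen, was also below the filter, at 0.65, 0.51 and 1.14 TPM and 0.64, 0.83 and 0.21 TPM. It was highest in wild type replicate 3 and lowest in Tmem216-/- replicate 3. Pmel was lowest in the latter too, but its highest value occurred in both wild type replicate 3 and Tmem216-/- replicate 2. Dct and Slc45a2 had the same extremes as Gpnmb, while Mitf, Kit, Ednrb, Mlana, Tyr, Tyrp1 and Oca2 did not.

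The tyrosinase family supplies the enzymes of melanin synthesis, and the promoters of its 3 genes carry the letters that MITF is known to bind. TCATGTG, the core of the longer element called the M-box, was searched on both strands of the RefSeq promoter windows of GRCm38.p6 (300 bases, from 250 before to 50 after each start). Windows were found for 7 of the 10 genes, 10 windows in all, and not for Pmel, Mlana and Slc45a2. The core lay in 3 of the 10, those of Tyr, Tyrp1 and Dct, against 3.77% of the 32851 windows in the table. The sequences below show each match with 11 bases on either side, 5′ to 3′ on the strand of the gene, with the core (or, in the last line, its reverse complement) in capitals:
Tyr, chr7:87493517-87493545, minus strand: gaaaaagttagTCATGTGctttgcagaag
Tyrp1, chr4:80834155-80834183, plus strand: tggggagggagTCATGTGctgcctagtag
Dct, chr14:118052380-118052408, minus strand: tgcacttagggTCATGTGctaacaaagag
Dct, chr14:118052461-118052489, minus strand: cttggctgggaCACATGAgcccaataaag
The core began 22 bases before the RefSeq start in Tyr, 47 before it in Tyrp1 and 151 before it in Dct, where the reverse complement began 232 bases before it. For Tyrp1 RefSeq puts the start at 80834213 and GENCODE at 80834123, so the Tyrp1 match lies after the GENCODE start. Tyr and Tyrp1 shared an unbroken run of 11 bases around the core, and each shared 10 with the nearer Dct match. A match is a stretch of letters and does not show that the site was bound in these embryos.

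None of these 3 genes passed the test, and their differences from wild type did not share a sign. Tyr, the rate-limiting enzyme (ENSMUSG00000004651, chr7:87424771-87493512), was 0.41, 0.12 and 0.10 TPM in wild type, against 0.47, 0.31 and 0.14 TPM in Tmem216-/-, and the groups overlapped (difference 0.11, exact permutation p = 0.5). Tyrp1, which stabilises tyrosinase and acts later in the pathway (ENSMUSG00000005994, chr4:80834123-80851719), was 0, 0.02 and 0.21 TPM and 0.29, 0.61 and 0.13 TPM. Its means were 0.0767 ± 0.116 and 0.343 ± 0.244 TPM, with wild type replicate 3 above Tmem216-/- replicate 3 (difference 0.31, exact permutation p = 0.2). Both were below the filter, and in the fit without it neither passed (adjusted p = 0.927 for Tyr and 0.925 for Tyrp1).

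Dct, the dopachrome tautomerase and the earliest of the family to appear in melanoblasts (ENSMUSG00000022129, chr14:118012790-118052244), lay in the other direction. It was 3.44, 2.23 and 3.89 TPM in wild type, against 2.32, 2.58 and 1.04 TPM in Tmem216-/-, with the lowest wild type sample below 2 of the Tmem216-/- samples. The means were 3.19 ± 0.859 and 1.98 ± 0.824 TPM, a difference of -0.51 (SE 0.28, 95% interval -1.19 to 0.16; p = 0.116, adjusted p = 0.983; exact permutation p = 0.3). With each sample left out it stayed between -0.69 and -0.26. Dct is expressed in the telencephalon as well as in pigment cells at this stage, and a whole-sample value does not separate them.

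The transporters that set the ionic conditions of the melanosome were close to the bottom of the measurable range. Slc45a2 (ENSMUSG00000022243, chr15:11000721-11029233) was 0.09, 0.11 and 0.29 TPM in wild type, against 0.05, 0.10 and 0.02 TPM in Tmem216-/- (difference -0.14, exact permutation p = 0.2). Oca2 (ENSMUSG00000030450, chr7:56239760-56536518) was 0.08, 0.12 and 0.08 TPM and 0.19, 0.13 and 0.11 TPM (difference 0.06, exact permutation p = 0.2). The groups overlapped for both, and the depth that would show how many reads these values rest on is unknown.

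Genes that build and move melanosomes, most of which also serve lysosomes in other cells, did not pass either. Of 26 biogenesis genes 15 were higher and 11 lower in Tmem216-/-, with a median difference of 0.03, and 0 of the 24 tested passed limma (0 at an unadjusted p under 0.05). Gpr143, a melanosome receptor restricted to pigment cells, was 0.19, 0.22 and 0.40 TPM and 0.28, 0.20 and 0.08 TPM, again with its extremes in wild type replicate 3 and Tmem216-/- replicate 3. Slc24a5, a melanosome ion exchanger, had a difference of 0.04, and Bloc1s5, a subunit of the complex that sorts cargo to melanosomes, of -0.35. Bace2, a protease that processes PMEL, was 0.67, 0.89 and 0.91 TPM and 3.56, 1.36 and 1.35 TPM. The Bace2 groups did not overlap (difference 0.69, adjusted p = 0.983), and Tmem216-/- replicate 1 gave the highest value. Tpcn2, a melanosome channel, had a difference of 0.65, with 31.4 TPM in Tmem216-/- replicate 2, and of 0.19 without that sample.

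In the transport list 5 of 8 genes were higher and 3 lower, the median difference was 0.03, and 0 of the 7 tested passed limma (0 at an unadjusted p under 0.05). Rab27a and Myo5a, the small GTPase and the motor that carry melanosomes to the cell edge, had differences of -0.0017 and 0.007. Myo7a, the motor used in the retinal pigment epithelium, was at 0.20, Myrip, its linker, at 0.27, and Mreg, a regulator of pigment transfer, at -0.23.

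**Figure D3:**
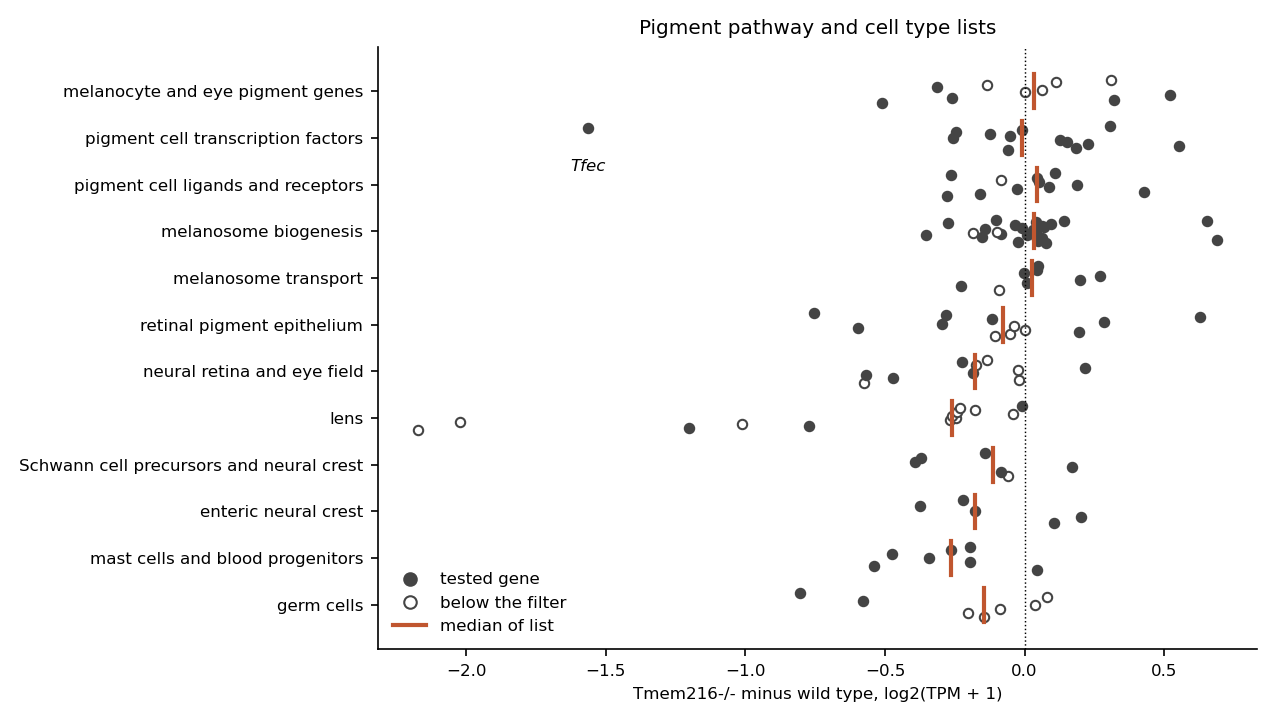
Difference between Tmem216-/- and wild type in mean log2(TPM + 1) for every gene of the pigment pathway and cell type lists (1 point a gene, filled where tested, open below the filter, red bar for the median of the list). The list medians of the pigment and melanosome lists lie within 0.05 of 0, Tfec at -1.56 is the lowest point of those lists, and all 13 lens genes are below 0. The lens count rests in part on wild type replicate 3 alone.

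The genes of the retinal pigment epithelium ranged from not detected to well measured. Rpe65, the visual cycle isomerase, was listed at 0 in 5 of 6 samples, with 0.08 TPM in wild type replicate 3, and Rgr, a retinal opsin, was listed at 0 in all 6. Stra6, a retinol transporter also found in other tissues, ran from 18.7 to 29.3 TPM, Rdh5, a retinol dehydrogenase, from 3.93 to 6.65 TPM, and Trpm1, a channel of melanocytes and retina, from 0.38 to 4.22 TPM. Rgr, Stra6, Rdh5, Trpm1 and Slc16a8 were chosen after their values were seen. Of the 12 genes of this list 3 were higher, 8 lower and 1 equal. The higher ones were Trpm1 (difference 0.63), Slc16a8 (0.28, without overlap) and Rdh5 (0.20). Of the 8 tested 0 passed limma, with 1 at an unadjusted p under 0.05 (background 4.46%). That gene was Serpinf1, which encodes a secreted factor of this epithelium and of mesenchyme: 88.9, 78.5 and 73.0 TPM in wild type, against 67.6, 62.0 and 65.0 TPM in Tmem216-/-, without overlap (difference -0.30, adjusted p = 0.983). Rlbp1, a retinoid carrier of the epithelium and of neural progenitors, was 4.03, 1.65 and 2.98 TPM and 1.28, 1.90 and 1.32 TPM (difference -0.60). Ttr, a thyroid hormone carrier made chiefly by choroid plexus and liver, had a difference of -0.75.

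Of 10 genes of neural retina and eye field 1 was higher and 9 lower in Tmem216-/-. Of the 5 tested 0 passed limma, with 1 at an unadjusted p under 0.05 (background 4.46%). Rax, an eye field factor, was 0.57, 0.30 and 2.07 TPM in wild type, against 0.87, 0.79 and 0.78 TPM in Tmem216-/-, with wild type replicate 3 the highest. Six6, another eye field factor, was below 0.6 TPM in every sample, and Six3, a factor of eye and forebrain, had a difference of 0.22. Pax2, a factor of optic stalk, kidney and hindbrain, had a difference of -0.57, with 19.7 TPM in wild type replicate 3, and of -0.21 without that sample. Lhx2, an eye and forebrain factor, had a difference of -0.47 (adjusted p = 0.841) with groups that did not overlap.

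All 13 lens genes were lower in Tmem216-/- by their means, but 10 of them were below the filter and 0 of the 3 tested passed (0 at an unadjusted p under 0.05). Some of those below the filter were listed at 0 in every sample but wild type replicate 3, so the count rests in part on that replicate. Cryaa, the lens chaperone alpha A crystallin, was 2.23, 0.10 and 27.5 TPM in wild type, against 0, 0.05 and 0.05 TPM in Tmem216-/-. Cryba1 was 2.32, 1.00 and 11.2 TPM and 0.57, 1.32 and 0.82 TPM, and Cryba4 had a difference of -0.77. Pitx3, a lens factor also found in midbrain and muscle, was at -0.0084, and at 0.19 without wild type replicate 3. Pmel, Dct, Slc45a2, Mitf and Tyrp1 each had their highest wild type value in the replicate with the highest sum of lens genes. Kit, Ednrb, Mlana, Tyr and Oca2 did not, and Tyr and Ednrb had their lowest wild type value there. Mitf led only by 1.03 against 1.02 TPM in wild type replicate 2, and Slc45a2 and Tyrp1 were below the filter. The share of all genes that are highest in this replicate was not counted, so the split of the 10 genes has no background to be set against. The part of eye tissue in these values was not tested.

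**Figure D4:**
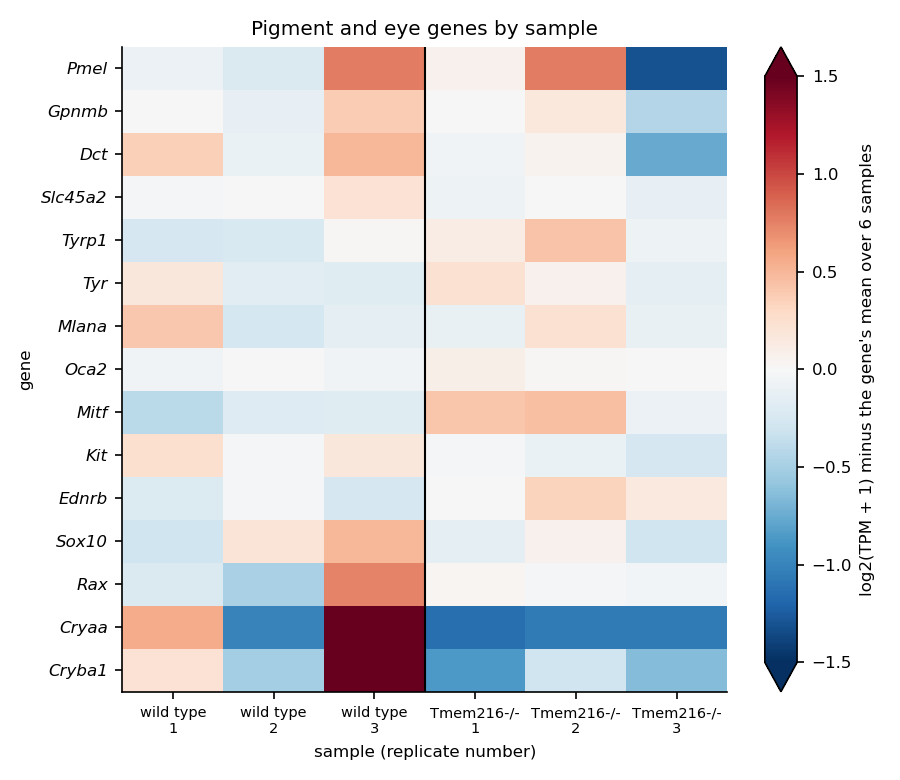
Level of the 10 genes and of selected crest and eye genes in each sample, as log2(TPM + 1) minus the mean of that gene over the 6 samples (colour scale, red above and blue below its mean, saturating at 1.5). Wild type replicate 3 is red for Pmel, Rax and both crystallins, and Tmem216-/- replicate 3 is blue for Pmel, Gpnmb and Dct. Pmel is equally red in Tmem216-/- replicate 2 (5.96 TPM in both). Not every eye gene was highest in wild type replicate 3: Lhx2, not shown, was 83.9 TPM in wild type replicate 1 and 67.0 TPM there.

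Among the 5 tested genes 10 pairs were compared over the 6 samples, and none passed an adjustment over the pairs (lowest adjusted p = 0.125). Pmel and Dct had a Pearson r of 0.83 (exact permutation p = 0.0250, adjusted p = 0.125) and a Spearman rho of 0.78 (exact permutation p = 0.0778, adjusted p = 0.257). Without wild type replicate 3 and Tmem216-/- replicate 3, the samples farthest from the median of Pmel, r was -0.03, so the relation rests on those samples. Dct and Kit had an r of 0.91 (exact permutation p = 0.0167, adjusted p = 0.125) and a rho of 0.71 (exact permutation p = 0.136, adjusted p = 0.272), and r was 0.86 without the same samples. Mitf and Pmel, a factor and its target, had an r of 0.31 (exact permutation p = 0.506, adjusted p = 0.632) and a rho of 0.41 (exact permutation p = 0.433, adjusted p = 0.619), and r was -0.39 without Tmem216-/- replicates 1 and 2. Kit and Ednrb had an r of -0.83 (exact permutation p = 0.0458, adjusted p = 0.153) and a rho of -0.89 (exact permutation p = 0.0333, adjusted p = 0.257), and r was -0.91 without wild type replicate 1 and Tmem216-/- replicate 3. Mitf and Ednrb had an r of 0.72 (exact permutation p = 0.0972, adjusted p = 0.243) and a rho of 0.77 (exact permutation p = 0.103, adjusted p = 0.257), and r was 0.66 without Tmem216-/- replicates 1 and 2. In the other 5 pairs r ran from -0.60 to 0.53 and rho from -0.77 to 0.23. The 6 samples hold both genotypes, between which Mitf, Kit and Ednrb did not overlap, so these values mix differences between and within groups.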

How the data were processed

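The members and gene lists were chosen with earlier results of these data known. Per the submitters' processing notes, CASAVA 1.8, HISAT2, StringTie and RSEM were used with mm10. The authors deposited TPM per gene for 6 samples. Reads per sample are unknown, so the limit that depth sets on precision, beside the number of samples, cannot be stated. A further 2 numeric columns were not used. Where identifiers shared a symbol, that with the highest mean kept it.

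The filter required 1 TPM in 3 or more samples, which 16411 genes met. Values were log2(TPM + 1), and a difference is on that scale, which understates changes of low genes. The genotypes were compared by limma (lmFit, eBayes with a trend, two-sided, Benjamini-Hochberg over all genes tested), with exact two-sided permutation tests over 20 splits for the members. Of 125 listed genes in 12 lists, 124 were found; some further marker genes are not reported here. Named were Tmem216, the members, and from each list the 3 smallest p values and up to 2 genes listed first, plus the 5 genes most correlated with Pmel; others are said to be chosen after seeing values. Positions are from GENCODE M21 and promoters from RefSeq.

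The simulated data held 16411 genes, with 50 changed genes for each size of change. Recovery was 74% and 86% for the 2-fold and 4-fold sets, and 100% and 98% for those of 8-fold and 16-fold. Over all sets together 194 genes were called, of which 15 were false. The real data gave only 17 calls, so the adjusted p threshold was easier to reach in the simulation. The changed genes were drawn only from those above about 5 TPM on average, and the noise was normal and independent. Pmel (3.54 TPM), Dct (2.58 TPM), Mitf (1.365 TPM) and the 5 genes below the filter lay under that level, so these shares do not apply to them. Kit and Ednrb lay above it, but because of the easier threshold the shares do not give the chance of finding a change in them either. Alternatives were pseudocounts of 0.1 and 5, no filter, 5 TPM, 2 scalings, leaving out haemoglobin, mitochondrial and rRNA genes, replicate block, sex covariate, no trend, and each sample left out. Versions: limma 3.58.1 in R 4.3.3; scipy 1.17.1, pandas 2.3.3 and matplotlib 3.10.9 in Python 3.11.15.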

Additional observations from a re-analysis of the deposited data

How the results depend on the processing

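In the alternatives run, 0 of the pigment genes tested passed limma: 10 were tested with no filter, 2 with the filter at 5 TPM and 5 in each of the others. The number at an unadjusted p under 0.05 was 2 in the main fit. It was 0 without wild type replicate 1, wild type replicate 3 or Tmem216-/- replicate 2. It was 1 with a pseudocount of 0.1, no filter, 5 TPM, replicate block or sex covariate, and without Tmem216-/- replicate 1 or 3. Over all genes 17 passed, against 0 with no filter (1207 at an unadjusted p under 0.05) and 0 to 27 with each sample left out (0 without wild type replicate 1, 2 without wild type replicate 2, 1 without wild type replicate 3, 27 without Tmem216-/- replicate 1, 9 and 7 without Tmem216-/- replicates 2 and 3). The median difference of the 10 genes was 0.29 with a pseudocount of 0.1, which widens differences of low values, and -0.035 to 0.15 with each sample left out. With the replicate block 25 genes passed; same-numbered samples had residual correlations of 0.016, -0.093 and 0.10, so the numbers were not taken as pairs.

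Of the 10 genes only Pmel among the tested turned direction, from -0.78 to 0.26 over the samples left out; Mlana, below the filter, ran from -0.13 to 0.20, as did Cdh19 from -0.27 to 0.24 and Rax from -0.28 to 0.34. Rab27a turned to 0.0035 (pseudocount of 0.1), 0.0038 (median-of-ratios), 0.016 (quantile), 0.0085 (genes removed) and 0.035 (sex covariate), Kitl to -0.019 (pseudocount of 5), and Pitx3 to 0.013 (quantile) and 0.0031 (genes removed). With each sample left out, differences ran from -0.11 to 0.18 for Rab27a, -0.45 to 0.49 for Kitl, -0.21 to 0.19 for Pitx3, -0.083 to 0.017 for Edn3, -0.080 to 0.19 for Slc24a5, -0.018 to 0.40 for Myo7a, -0.050 to 0.23 for Tfe3, -0.14 to 0.29 for Tfeb, -0.0062 to 0.38 for Pax3, and -0.057 to 0.058 for Myo5a. Of 66 named genes 14 turned direction in this way, 36 kept it but moved by more than 1.5 times, and 16 kept it within 1.5 times. The cause was not tested. Tfec stayed lower in all of them, with an adjusted p from 0.140 to 0.601. Depth is unknown and limits what the 5 genes below the filter can show.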

Other observations

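The genes whose log2(TPM + 1) followed that of Pmel most closely over the 6 samples, among genes with a proper symbol, were Jmjd4 (r = 0.98), Tnfrsf22 (0.98), Pxmp4 (0.98), Ccdc24 (0.98) and Ivd (0.96). With 16411 genes and 6 samples such values arise easily, and they are given as a description with no test. With each sample left out r ran from 0.91 to 0.98 for Ivd and from 0.95 to 0.99 for Jmjd4.

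Germ cells, which also depend on KIT, were at the limit of measurement. Of the 7 listed germ cell genes 5 were below the filter, and 2 were higher and 5 lower in Tmem216-/-. Of the 2 tested 0 passed limma, with 1 at an unadjusted p under 0.05 (background 4.46%). Ddx4, the germ cell helicase, was 0.41, 0.65 and 0.57 TPM in wild type, against 0.39, 0.31 and 0.32 TPM in Tmem216-/-, and Dazl, an RNA-binding protein of germ cells, was below 0.3 TPM in every sample. Tfap2c, a factor of germ cells, placenta and surface ectoderm, was 6.48, 3.70 and 9.16 TPM and 3.35, 3.29 and 2.59 TPM, without overlap (difference -0.80, adjusted p = 0.983). Nanos3, a germ cell survival factor, had a difference of -0.58.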
